A study of Homo sapiens with 6 samples.

Results

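Transcripts of 10 genes known as targets of the hypoxia-inducible factors (HIF) were followed in the established human cell line T3M4, which derives from a pancreatic ductal adenocarcinoma. The genes were taken by name from the authors' deposited table, which lists 16617 genes, and all 10 were found: NDRG1, NDUFA4L2, BNIP3, BNIP3L, EGLN3, CA9, VEGFA, ADM, ANKRD37 and P4HA1. The set was chosen by name with the deposited fold changes and adjusted p of this same comparison known, so their differences are a description and not a test. RNA sequencing covered 3 sgMETTL13 libraries, labelled METTL13 knockdown, and 3 sgControl libraries, labelled WT. Both groups were grown in the same serum-supplemented medium, and the labels give neither the oxygen level nor the nature of the treatment that was shared with a protein study of these cells. The number of guides per gene and whether the lines are clones are not stated in the labels or files used here. METTL13 methylates the translation elongation factor eEF1A.

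HIF joins an oxygen-sensitive alpha subunit to a stable beta subunit. When oxygen is present, prolyl hydroxylases of the EGLN family mark the alpha subunit for the von Hippel-Lindau ligase, and when oxygen is short the alpha subunit persists and induces genes for oxygen saving, mitophagy, acid handling, blood vessel growth and collagen modification. Pancreatic ductal carcinoma is known for poorly perfused tissue in which this program is active, and several of its targets also respond to other stress factors such as ATF4.

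The table holds 1 average per group and gene, so no value per library and no spread between libraries can be shown. In place of a spread, each fold change below carries a standard error (SE) implied by the authors' own p-value, and "called" means that the authors' deposited table gives an adjusted p below 0.05. METTL13 itself averaged 5.63 TPM (a transcript level corrected for length and library size) in sgMETTL13 and 39.9 TPM in sgControl. Average estimated reads summed to 15247500 per library in sgMETTL13 and 15240866 in sgControl. Of 10 ductal epithelial markers all were listed, led by KRT19 with 2078 TPM in sgMETTL13 and 2107 TPM in sgControl. Of 16 markers of fibroblasts, endothelium, leukocytes, acinar and endocrine cells 10 were listed, with summed levels of 61.9 TPM in sgMETTL13 and 58.0 TPM in sgControl. Most of that sum was CD68 (44.1 TPM in sgMETTL13, 40.9 TPM in sgControl) and COL1A1 (14.2 TPM in sgMETTL13, 14.0 TPM in sgControl). A change in RNA per cell and a change in the share of cells that express a gene cannot be told apart in bulk RNA.

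The 10 genes covered a wide range of levels. NDRG1, a stress-responsive cytoplasmic protein induced by hypoxia and by iron shortage, was the most abundant by far, with 1022 TPM in sgMETTL13 and 788 TPM in sgControl, which placed it at rank 141 of all genes by level in sgMETTL13 and rank 166 in sgControl. VEGFA, the main growth factor for blood vessels, followed with 315 TPM in sgMETTL13 and 302 TPM in sgControl. NDUFA4L2, a mitochondrial protein that lowers oxygen use when HIF is active, had 127 TPM in sgMETTL13 and 77.3 TPM in sgControl.

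A middle group held mitochondrial, vascular and collagen genes. BNIP3 and BNIP3L encode outer mitochondrial membrane receptors that hand mitochondria to autophagy. BNIP3 had 90.9 TPM in sgMETTL13 and 74.3 TPM in sgControl, whereas BNIP3L had 53.2 TPM in sgMETTL13 and 53.6 TPM in sgControl. ADM, the precursor of the vessel-dilating peptide adrenomedullin, had 49.3 TPM in sgMETTL13 and 51.3 TPM in sgControl. P4HA1, a catalytic subunit of collagen prolyl 4-hydroxylase, had 36.0 TPM in sgMETTL13 and 35.3 TPM in sgControl. The lowest levels were those of CA9, EGLN3 and ANKRD37. CA9, a cell-surface carbonic anhydrase and a common hypoxia marker in tumours, had 11.3 TPM in sgMETTL13 and 10.7 TPM in sgControl. EGLN3, a HIF prolyl hydroxylase that HIF itself induces, had 8.06 TPM in sgMETTL13 and 6.44 TPM in sgControl. ANKRD37, a small ankyrin repeat protein, had 8.81 TPM in sgMETTL13 and 6.89 TPM in sgControl. On the TPM scale 8 of the 10 averages were thus higher in sgMETTL13, and those of BNIP3L and ADM were lower.

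**Figure D1:**
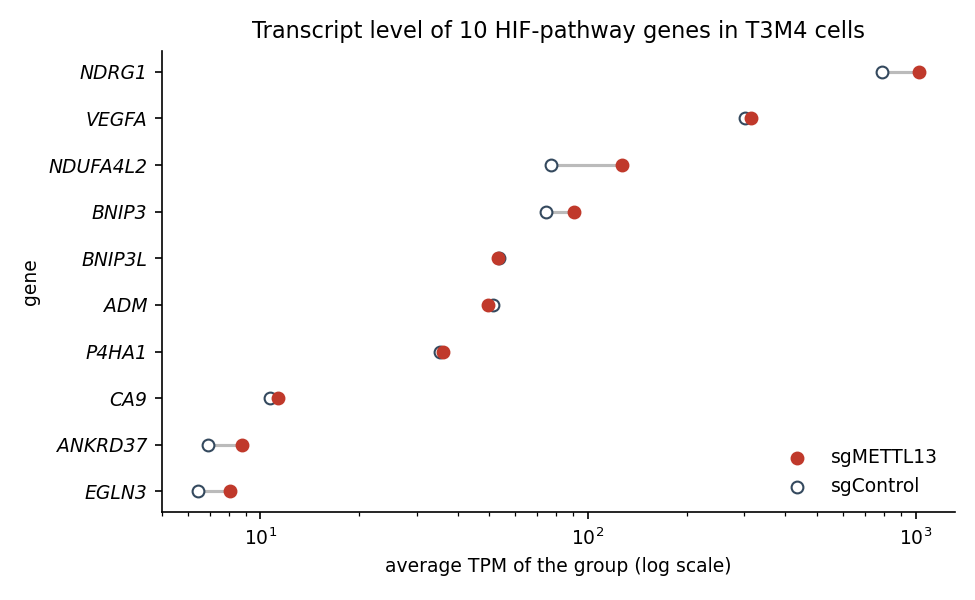
Average TPM (log axis) of the 10 genes, with filled points for sgMETTL13 and open points for sgControl; each point is the authors' average over 3 libraries, with no error available. The points lie far apart for NDUFA4L2 (127 TPM in sgMETTL13, 77.3 TPM in sgControl) and nearly coincide for BNIP3L (53.2 TPM in sgMETTL13, 53.6 TPM in sgControl).

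The sequence before the transcription start was examined for the core of the HIF response element, written ACGTG or GCGTG and searched on both strands. A RefSeq promoter of GRCh38.p14 was matched for 7 of the 10 genes by Entrez ID (NDUFA4L2 under a newer symbol), and the 250 bases before the first listed start were read. NDRG1, BNIP3L and VEGFA were not analysed here. The 5 sequences shown are those of the called genes with an entry, NDUFA4L2 and BNIP3, of EGLN3 and ANKRD37, whose fold changes were of like size without a call, and of CA9; capitals mark each match on either strand, where CACGT and CACGC are the motifs read on the opposite strand.
NDUFA4L2 (chr12:57240763-57241012, minus strand): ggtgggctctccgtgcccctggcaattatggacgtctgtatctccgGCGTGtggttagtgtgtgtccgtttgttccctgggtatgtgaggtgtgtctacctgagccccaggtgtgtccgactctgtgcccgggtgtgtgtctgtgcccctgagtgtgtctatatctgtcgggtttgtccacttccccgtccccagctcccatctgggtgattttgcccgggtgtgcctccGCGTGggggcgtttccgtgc
BNIP3 (chr10:131981924-131982173, minus strand): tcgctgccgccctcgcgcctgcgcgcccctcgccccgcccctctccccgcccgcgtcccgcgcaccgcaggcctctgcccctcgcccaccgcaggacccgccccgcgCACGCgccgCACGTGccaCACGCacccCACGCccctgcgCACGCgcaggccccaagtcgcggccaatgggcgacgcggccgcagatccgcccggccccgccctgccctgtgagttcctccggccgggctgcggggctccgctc
EGLN3 (chr14:33951075-33951324, minus strand): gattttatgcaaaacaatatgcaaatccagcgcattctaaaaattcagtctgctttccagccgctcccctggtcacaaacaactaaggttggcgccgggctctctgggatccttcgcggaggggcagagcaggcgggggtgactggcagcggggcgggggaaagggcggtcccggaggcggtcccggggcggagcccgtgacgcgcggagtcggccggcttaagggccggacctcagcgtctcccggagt
ANKRD37 (chr4:185396591-185396840, plus strand): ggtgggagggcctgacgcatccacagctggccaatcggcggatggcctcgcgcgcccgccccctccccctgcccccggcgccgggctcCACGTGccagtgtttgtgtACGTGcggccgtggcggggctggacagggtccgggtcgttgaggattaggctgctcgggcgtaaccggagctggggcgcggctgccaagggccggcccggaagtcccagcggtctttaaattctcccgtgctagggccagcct
CA9 (chr9:35673678-35673927, plus strand): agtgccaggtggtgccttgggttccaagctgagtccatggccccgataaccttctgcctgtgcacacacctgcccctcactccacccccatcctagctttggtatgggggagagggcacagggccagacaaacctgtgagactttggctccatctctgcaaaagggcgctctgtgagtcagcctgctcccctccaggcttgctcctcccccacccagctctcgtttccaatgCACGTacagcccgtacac

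BNIP3 had 6 matches between 143 and 104 bases before the start, of which the overlapping pair at 134 and 133 bases is 1 palindrome read on both strands. ANKRD37 had 3 matches, again with 1 such palindrome (162 and 161 bases before the start) and a further ACGTG at 143 bases. NDUFA4L2 had GCGTG at 204 and 20 bases before the start, and CA9 had 1 ACGTG on the opposite strand at 18 bases. ADM held GCGTG at 101 bases and P4HA1 held ACGTG on the opposite strand at 86 bases. The EGLN3 window held neither motif. In all 6 of 7 windows held a match, beside 54.0% of the 13104 promoters of genes in the expression table and 43.1% of all 27305 promoters. With ACGTG alone the count was 4 of 7, beside 21.9% of promoters of genes in the expression table, and with GCGTG alone it was 3 of 7 (42.9%), beside 42.5%. The further HIF targets listed below held either motif in 26 of 32 promoters (81.25%), ACGTG in 50.0% and GCGTG in 62.5%. For the glycolytic genes listed below, the shares of 16 promoters were 62.5%, 50.0% and 31.25% in the same order. No test was made, and a match is not evidence of binding. EGLN3 without a match and ANKRD37 with 3 had log2 ratios near each other (0.40 and 0.43) in the authors' deposited table.

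The 3 genes with a called difference, all higher in sgMETTL13, were NDUFA4L2, NDRG1 and BNIP3. Of all genes listed, 2.73% were called higher, 1.08% lower and 3.80% in either direction. Where the mean read count was at the median of 205 or more, 5.21% were called higher. The median log2 ratio of the 10 genes was 0.26 in the authors' deposited table, with quartiles of 0.11 and 0.42, beside a median of 0.0014 over all genes. With a trend of fold change in transcript GC content and length removed, the higher share of all calls was 57.6% in place of 71.7%, and the same 3 of the 10 genes were called.

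The largest difference was that of NDUFA4L2. It averaged 1110 estimated reads in sgMETTL13 and 665 in sgControl. In the authors' deposited table its log2 ratio was 0.79 (1.73-fold) at an adjusted p of 1.55e-18, and the implied SE was 0.083 (95% interval from 0.63 to 0.95). NDUFA4, the related subunit of respiratory complex IV, had 61.2 TPM in sgMETTL13 and 65.1 TPM in sgControl. The level of NDUFA4L2 was therefore 2.07 times that of NDUFA4 in sgMETTL13 and 1.19 times in sgControl. In the authors' deposited table NDUFA4 had a log2 ratio of -0.02 (implied 95% interval from -0.19 to 0.16) and was not called.

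NDRG1 had the deepest coverage, with 24310 estimated reads in sgMETTL13 and 18463 in sgControl. Its log2 ratio was 0.45 in the authors' deposited table (1.36-fold, adjusted p of 5.57e-19), with an implied SE of 0.046 and an interval from 0.36 to 0.54. Of its 3 relatives 0 were called in the authors' deposited table, and 0 had an unadjusted p under 0.05. NDRG3, the relative with the most reads, had 46.5 TPM in sgMETTL13 and 47.5 TPM in sgControl, so that NDRG1 stood 22.0 times above it in sgMETTL13 and 16.6 times in sgControl. NDRG2 and NDRG4 were low, with 0.690 and 0.943 TPM in sgMETTL13 against 1.35 and 0.623 TPM in sgControl, and their implied SEs of 0.481 and 0.470 leave their direction undetermined.

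BNIP3 and BNIP3L, which share the mitophagy role, differed in their values. BNIP3 averaged 1115 estimated reads in sgMETTL13 and 899 in sgControl, with a log2 ratio of 0.36 in the authors' deposited table (1.29-fold, adjusted p of 0.0013) and an implied SE of 0.085. With a Bonferroni adjustment over all genes the call of BNIP3 was lost (adjusted p of 0.316). BNIP3L averaged 1438 estimated reads in sgMETTL13 and 1428 in sgControl, and its log2 ratio was 0.06 in the authors' deposited table at an adjusted p of 0.940. The interval of BNIP3L ran from -0.10 to 0.22. Whether the 2 fold changes differ was not tested. BNIP3 stood 1.71 times above BNIP3L by TPM in sgMETTL13 and 1.39 times in sgControl.

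EGLN3 and ANKRD37 had fold changes close to those of NDRG1 and BNIP3 but were counted from far fewer reads. EGLN3 averaged 168 estimated reads in sgMETTL13 and 132 in sgControl. In the authors' deposited table its log2 ratio was 0.40 at an adjusted p of 0.193, and its implied SE was 0.163. A log2 ratio of 0.51 would have been needed for a call at that error. ANKRD37 averaged 60.0 estimated reads in sgMETTL13 and 46.0 in sgControl, with a log2 ratio of 0.43 and an adjusted p of 0.637 in the authors' deposited table. Its implied SE of 0.285 put the size needed for a call at 0.89. A difference of the size seen for NDRG1 was thus not detectable at the depth of ANKRD37. The other HIF prolyl hydroxylases, EGLN1 and EGLN2, had log2 ratios of 0.04 and 0.18 in the authors' deposited table and were not called.

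**Figure D2:**
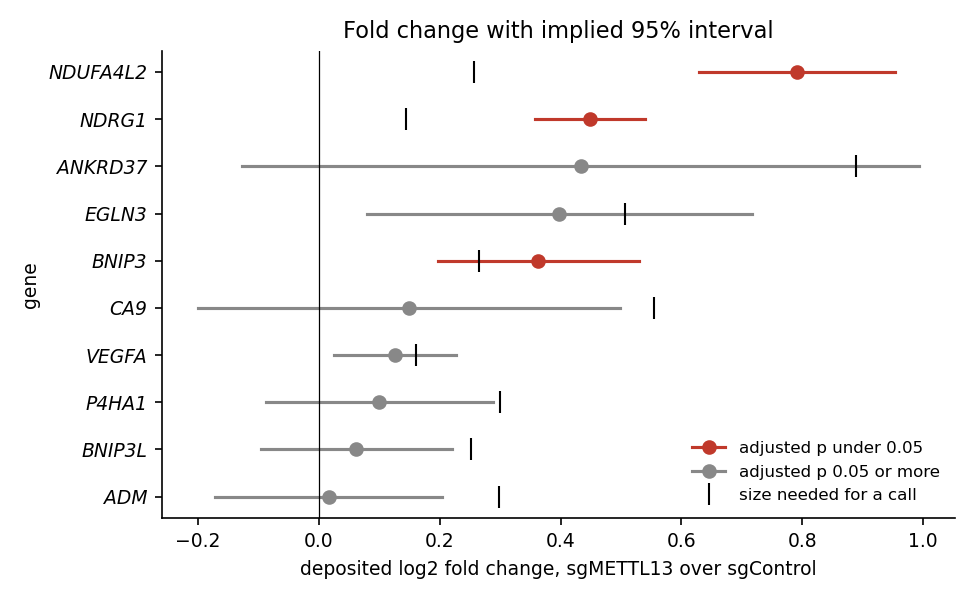
Deposited log2 ratio of sgMETTL13 over sgControl for the 10 genes (points) with the 95% interval implied by the deposited p-value (lines); red marks an adjusted p under 0.05 and a black tick the size a call would have needed at that error. The point lies beyond its tick for NDUFA4L2 (0.79), NDRG1 (0.45) and BNIP3 (0.36), while ANKRD37 (0.43) and EGLN3 (0.40) fall short of ticks at 0.89 and 0.51.

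The secreted and cell-surface members were not called. VEGFA, with 7409 estimated reads in sgMETTL13 and 7033 in sgControl, had a log2 ratio of 0.13 and an adjusted p of 0.189 in the authors' deposited table. Its log2 ratio was 0.06 both from average TPM with 0.1 added and with the GC and length trend removed (adjusted p of 0.886 for the second). The median over all genes was -0.07 on the first scale and -0.02 on the second. The implied SE of the deposited ratio of VEGFA was 0.051, and the upper bound of its interval was 0.23, below the lower bound of 0.36 for NDRG1. VEGFB and VEGFC, the related ligands with the most reads, had log2 ratios of 0.12 and 0.18 in the authors' deposited table and were not called. PGF, a related ligand with few reads (3.09 TPM in sgMETTL13 and 3.06 TPM in sgControl), had a log2 ratio of 0.08 without a call. NRP2, a co-receptor for VEGF-C, was the single call among 8 listed relatives and receptors, beside 3.80% of all genes called in either direction. NRP2 fell by 0.33 in log2 units in the authors' deposited table (adjusted p of 0.0032), with 24.2 TPM in sgMETTL13 and 30.3 TPM in sgControl.

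ADM averaged 589 estimated reads in sgMETTL13 and 604 in sgControl, and its log2 ratio was 0.02 in the authors' deposited table at an adjusted p of 0.977. Its sign depended on the scale: the log2 ratio was -0.06 from average TPM and -0.04 from unscaled reads. Likewise BNIP3L gave -0.01 from average TPM. Beside these, the median over all genes was -0.07 from average TPM with 0.1 added and -0.05 from unscaled reads. ADM2, the related peptide intermedin, rose by 0.39 in log2 units in the authors' deposited table (adjusted p of 0.0088), with 14.1 TPM in sgMETTL13 and 11.4 TPM in sgControl. The call of ADM2 was lost with the GC and length trend removed (adjusted p of 0.220). Its average reads were not whole multiples of 1 read over 3 libraries, as happens where reads are divided between genes. All 10 HIF targets described here had averages that were such multiples (tolerance of 0.02 on the sum).

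CA9 averaged 131 estimated reads in sgMETTL13 and 123 in sgControl. Its log2 ratio was 0.15 at an adjusted p of 0.923 in the authors' deposited table, and the interval from -0.20 to 0.50 includes differences as large as that of NDRG1. CA2, another carbonic anhydrase, had 46.9 TPM in sgMETTL13 and 47.5 TPM in sgControl, above CA9 in both groups. P4HA1 averaged 789 estimated reads in sgMETTL13 and 763 in sgControl, with a log2 ratio of 0.10 and an adjusted p of 0.859 in the authors' deposited table. Its relative P4HA2 had a log2 ratio of 0.06 in the authors' deposited table, also without a call.

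In GENCODE 29 (GRCh38) the 3 called genes are protein-coding genes on the minus strand: NDUFA4L2 on chromosome 12 from 57234903 to 57240715, NDRG1 on chromosome 8 from 133237171 to 133302022 and BNIP3 on chromosome 10 from 131966455 to 131982013. Overlapping genes limit the reading of 2 of the uncalled targets. In the same annotation, ARHGEF39 on the opposite strand covers 38.5% of the annotated exonic bases of CA9, and UFSP2 covers 35.2% of those of ANKRD37. Whether the libraries keep strand is not stated in the labels or files used here, so the gene of origin is uncertain for reads within the shared bases. Average reads were whole multiples of 1 read over 3 libraries in both groups for CA9, ANKRD37 and UFSP2. Those of ARHGEF39 were such multiples in sgMETTL13 but not in sgControl. The table gave ARHGEF39 219 estimated reads in sgMETTL13 and 263 in sgControl, and UFSP2 267 in sgMETTL13 and 272 in sgControl. No other gene overlaps the exons of NDRG1, BNIP3, EGLN3 or ADM in that annotation, and the overlap is 1.18% for NDUFA4L2.

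**Figure D3:**
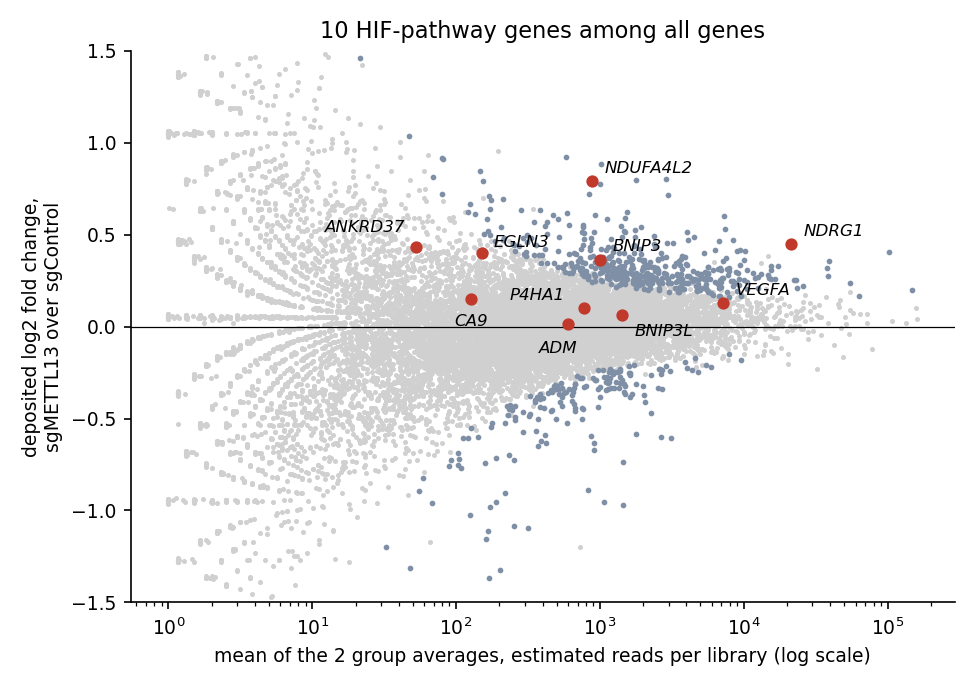
Deposited log2 ratio of sgMETTL13 over sgControl against the mean estimated reads per library (log axis) for all genes within the axis range and with at least 1 mean read; blue-grey points have an adjusted p under 0.05 and red points are the 10 HIF targets. NDRG1 (0.45) and NDUFA4L2 (0.79) lie among the called genes, whereas ANKRD37 and EGLN3 lie at similar heights to NDRG1 in the region of low reads where few genes are called.

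The genes that encode and regulate HIF itself were examined next, in lists chosen with earlier results of these data known. Of 5 HIF subunits 1 was called, higher in sgMETTL13 (20.0%, beside 2.73% of all genes and 5.21% of those at or above the median read count). HIF3A and ARNT2 had few reads (means of 4.33 and 29.7) and would have needed log2 ratios of 2.88 and 1.18 for a call. EPAS1, which encodes HIF-2 alpha, rose by 0.37 in log2 units in the authors' deposited table (1.29-fold, adjusted p of 1.46e-07, implied SE 0.059), with 69.7 TPM in sgMETTL13 and 57.0 TPM in sgControl. HIF1A, which encodes HIF-1 alpha, was more abundant, with 399 TPM in sgMETTL13 and 404 TPM in sgControl. In the authors' deposited table HIF1A had a log2 ratio of 0.05, and its implied interval ran from -0.05 to 0.16, against 0.25 to 0.48 for EPAS1; the difference between the 2 was not tested. ARNT, the common beta subunit, had a log2 ratio of 0.01 in the authors' deposited table.

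Among 15 genes of oxygen sensing and HIF control 1 was called, again higher (6.67%, beside 2.73% of all genes and 5.21% of those at or above the median read count). CITED2, a HIF target whose protein competes with HIF-alpha for the coactivators CBP and p300, rose by 0.43 in log2 units in the authors' deposited table (adjusted p of 4.32e-07), with 97.1 TPM in sgMETTL13 and 75.9 TPM in sgControl. The asparagine hydroxylase gene HIF1AN (0.02) and the ligase gene VHL (0.10) were not called in the authors' deposited table. The calls of EPAS1 and CITED2 held with the GC and length trend removed.

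Of 39 further HIF targets outside glycolysis 2 were called higher and 1 lower, and the median log2 ratio was 0.07. The share called higher was 5.13%, beside 2.73% of all genes. It was near the 5.21% found for genes with a read count at the median of 205 or more. BHLHE40, a transcriptional repressor, had 190 TPM in sgMETTL13 and 158 TPM in sgControl, and STC2, a secreted glycoprotein that is also an ATF4 target, had 95.5 TPM in sgMETTL13 and 79.6 TPM in sgControl. Both rose by 0.34 in log2 units in the authors' deposited table (adjusted p of 1.9e-07 for BHLHE40 and 6.41e-08 for STC2). CAV1, the main protein of caveolae, fell by 0.18 in log2 units in the authors' deposited table (adjusted p of 0.0198), with 420 TPM in sgMETTL13 and 502 TPM in sgControl. The deeply covered targets TFRC (-0.12), SLC16A3 (0.04) and MET (0.07) were not called in the authors' deposited table.

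Glycolytic genes under HIF differed by small amounts. Of 17 listed 1 was called higher (5.88%, beside 2.73% of all genes and 5.21% of those at or above the median read count). It was PKM, which encodes a pyruvate kinase, with a log2 ratio of 0.16 in the authors' deposited table (adjusted p of 0.0068). That call was lost with the GC and length trend removed (adjusted p of 0.186). GAPDH, ALDOA and ENO1, the uncalled members with the most reads, were at 0.04, 0.16 and 0.11 in log2 units in the authors' deposited table. For the whole list the median was 0.06, and its median implied SE of 0.055 was smaller than that of the 10 described genes (0.090).

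Mitophagy and stress genes were compared because they share a role or an inducer with the described genes. Of 10 listed mitophagy genes 3 were called higher (30.0%, beside 2.73% of all genes and 5.21% of those at or above the median read count). SQSTM1, an autophagy adaptor, rose by 0.25, the kinase gene ULK1 by 0.36 and the mitophagy receptor gene FKBP8 by 0.26 in log2 units in the authors' deposited table. With the GC and length trend removed ULK1 (adjusted p of 0.101) and FKBP8 (adjusted p of 0.527) lost the call. Of 12 markers of the ATF4 and NRF2 stress responses 5 were called higher (41.7%, beside the same 2.73% and 5.21%) and none lower. They were HMOX1 (0.72), ATF3 (0.50), TRIB3 (0.37), TXNRD1 (0.24) and SRXN1 (0.23) in the authors' deposited table. Again 5 were called higher with the trend removed, where 255 of all genes were called higher in place of 453. ATF3 then had a log2 ratio of 0.48 and lost the call (adjusted p of 0.0519), while GCLM, a subunit of the enzyme that starts glutathione synthesis, gained one (log2 ratio of 0.22, adjusted p of 0.0212). The list's median was 0.24, beside 0.26 for the 10 HIF targets, and the part of these responses in the levels of NDRG1, NDUFA4L2 or BNIP3 was not tested.

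**Figure D4:**
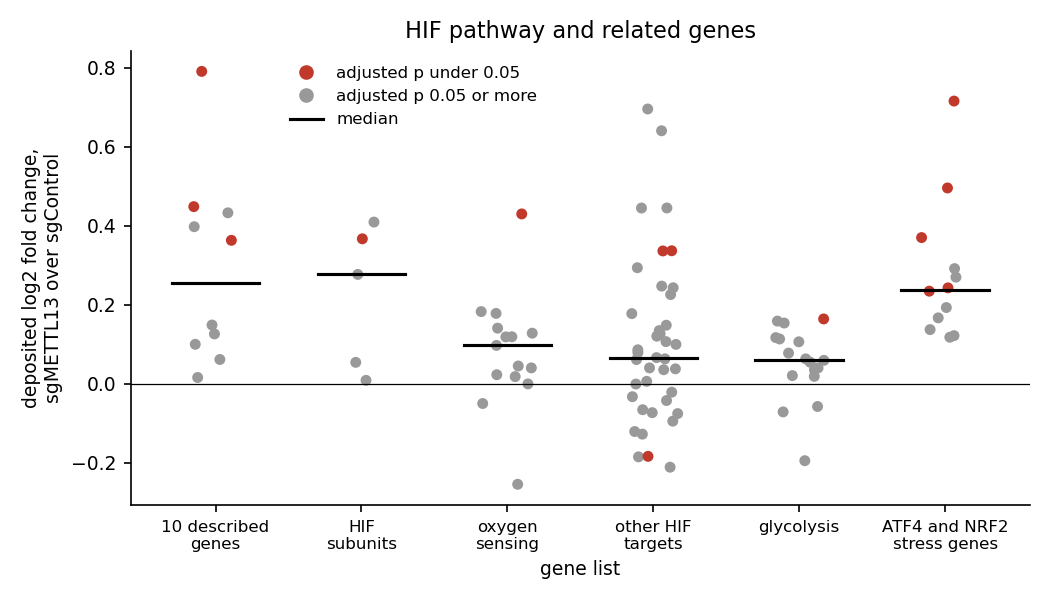
Deposited log2 ratio of sgMETTL13 over sgControl for each gene of the 10 described HIF targets and 5 related lists, with a black line at each list's median; red marks an adjusted p under 0.05. Medians are 0.26 for the 10 genes, 0.10 for oxygen sensing, 0.07 for other HIF targets, 0.06 for glycolysis and 0.24 for the stress genes; the median of the HIF subunits (0.28) is that of HIF3A, which has few reads.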

How the data were processed

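RNA was extracted with TRIzol and libraries were made by a sequencing company, per the labels' protocols. The submitters' processing notes name RSEM 1.2.12, HISAT2 2.0.4, DESeq2 (without a version) and Bowtie2 2.2.5, with builds hg38 and GRCh38.p12; no role or order comes with them. The 1 deposited table holds, per the file headers, the authors' group averages of TPM and of read counts (estimated counts), and a log2 ratio of KD (sgMETTL13) over WT (sgControl) with the authors' p-value and q-value, here called the adjusted p. TPM compares levels between genes, while the log2 ratio carries the authors' scaling, which lies 0.052 above the log2 ratio of unscaled reads. Labels do not say that libraries came from separate cultures, so p-values may measure technical spread only. No model on libraries was possible with averages; the planned deposited comparison was used, with a threshold of 0.05.

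The implied SE is the size of the log2 ratio over the normal quantile of the deposited p-value, and it adds nothing to that p. The depth of single libraries is unknown. Genes named are the 10 members, METTL13, the called genes of each list and up to 3 further genes of high read count, and relatives. HIF1AN, VHL, TPI1, UFSP2 and ARHGEF39 fall outside that rule and were chosen after their values were seen. One list that falls under this rule is not reported here. Members and lists were chosen with earlier results of these data known. GC content and length came from GENCODE 29 for 97.5% of genes, and a spline trend (4 degrees of freedom each, weighted by the implied SE) was removed as an alternative. Other alternatives were thresholds of 0.01 and 0.10, Bonferroni, recomputed Benjamini-Hochberg, a filter at 205 mean reads, centred fold changes and ratios of TPM or reads. The implied SE and the trend removal were run on simulated data, with changes larger than those of any of the 10 genes. Only genes with at least 205 mean reads were simulated, so the run does not cover changes as small as those described or genes such as ANKRD37. Tools were Python 3.11.15, scipy 1.17.1, matplotlib 3.10.9, patsy 1.0.2, numpy 2.4.6 and pandas 2.3.3.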

Additional observations from a re-analysis of the deposited data

How the results depend on the processing

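Over all genes, the authors' deposited table gave 632 calls, against 409 at a threshold of 0.01 and 180 with Bonferroni adjustment. Of 76 genes in the 4 pathway lists 6 were called, beside 3.80% of all genes in either direction. At a threshold of 0.10 the count was 10, where 889 of all 16617 genes were called. The 3 calls among the 10 HIF targets remained under every alternative run except Bonferroni, which left NDRG1 and NDUFA4L2. The median log2 ratio of the 10 genes ranged from 0.18 (average TPM with 0.1 or 1 added) to 0.26 (deposited ratio). The median over all genes was -0.07 with 0.1 added, -0.04 with 1 added and 0.0014 for the deposited ratio. ADM turned to -0.072 with the GC and length trend removed; the cause was not tested. EGLN3, CA9 and ANKRD37 lie below the filter at the median read count and were not tested under it. No paired analysis was possible because the columns hold group averages, and no library could be left out for the same reason. The protein comparison of relatives was not run. Depth limits ANKRD37, EGLN3 and CA9, with implied SEs of 0.285, 0.163 and 0.178.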

Other observations

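Partners of the described genes outside HIF signalling were counted beside a share of 3.80% called in either direction over all genes. Of 12 listed genes of complex IV and its relatives, the setting in which NDUFA4L2 is studied, 0 were called by the adjusted p of the authors' deposited table (3 at an unadjusted p under 0.05). Of 12 genes of collagen prolyl and lysyl hydroxylation, the partners of P4HA1, 0 were called in that table as well (1 at an unadjusted p under 0.05). Over all 16617 genes 2068 had an unadjusted p under 0.05, as did 1743 of the 8309 with at least 205 mean reads. P4HB, the beta subunit that joins P4HA1, had 711 TPM in sgMETTL13 and 703 TPM in sgControl. Of the 10 ductal epithelial markers 2 were called lower, beside 1.08% of all genes. MUC1, a membrane mucin, fell by 0.46 and SOX9, a ductal transcription factor, by 0.28 in log2 units in the authors' deposited table.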
